A study of Mus musculus with 6 samples.

Results

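The flavin monooxygenase genes Fmo1, Fmo2, Fmo4 and Fmo5 were followed in mouse embryonic fibroblasts (MEF) and in cells made from them by induction toward parvalbumin neurons. These 4 genes, of 22180 with a value, were selected by symbol from the deposited expression table, each through the probe set that names that gene alone. The family was chosen because Fmo2 was far above MEF, so every difference of Fmo2 from MEF is given as a description of what chose it. Each member had exactly 1 probe set, so no second probe set of the same gene was at hand for any of them.

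Total RNA of 6 samples was hybridised to Affymetrix arrays, 1 array per group. The groups were MEF, induced parvalbumin (iPV) cells 3, 7 and 14 days after infection, iPV cells sorted for green fluorescence at 14 days, and a sample labelled endogenous parvalbumin neurons. All 6 came from PV-GFP transgenic C57BL/6 mice, in which green fluorescent protein marks parvalbumin cells, and all carry the label of embryos at 13.5 days. Adenovirus infection is written in the labels of all 6, MEF and the endogenous sample included, and neither the virus's cargo nor a control virus is named. No group had a replicate, so no test was possible and every difference describes the arrays that were compared.

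The labelled cell types were only partly borne out by their defining markers. Values are log2 intensities, and 5.01, the median over non-control probe sets, served as a floor: lower values were raised to it before differences were taken. On the array of the sample labelled endogenous, Pvalb had 5.48, and 5 of 8 parvalbumin and GABAergic marker genes lay above the floor, against 4 of 8 in MEF. The summed level of that list ran from 7.97 in MEF to 8.24 on day 14 on the log2 scale, with 8.02 on the endogenous-labelled array. All 12 fibroblast markers were above the floor there. It is therefore called the endogenous-labelled array. Elsewhere, Pvalb had 5.23 in MEF, 5.76 on day 3, 6.15 on day 7, 5.80 on day 14 and 6.29 in sorted iPV cells. Sorted cells had 3 of the 8 parvalbumin and GABAergic markers above the floor, with Gad1, Gad2 and Slc32a1 under it. Of the 12 fibroblast markers, 11 were above the floor in sorted cells. The names iPV and sorted are likewise those of the labels.

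Flavin monooxygenases are membrane enzymes of the endoplasmic reticulum that carry FAD and use NADPH and oxygen to add an oxygen atom to nitrogen or sulfur atoms of drugs, dietary amines and some of the body's own metabolites. They work beside the cytochrome P450 enzymes but take electrons directly from NADPH, without a separate reductase. Fmo1 is a major hepatic and renal form in mice and also oxidises hypotaurine to taurine. Fmo2 is best known from lung, Fmo5 acts on ketones, and Fmo4 is poorly characterised.

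Fmo2 was the only member whose level was at least 2-fold above MEF on all 5 other arrays. The sequence before its start is shown because the results turn on this gene. The RefSeq promoter table of build GRCm38.p6 held 3 of the 4 members, and Fmo2 had 2 start sites in it. The 250 bases before the outer Fmo2 start lie on the minus strand at chr1:162898759-162899008. Capitals mark the match to a C/EBP site.

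Fmo2: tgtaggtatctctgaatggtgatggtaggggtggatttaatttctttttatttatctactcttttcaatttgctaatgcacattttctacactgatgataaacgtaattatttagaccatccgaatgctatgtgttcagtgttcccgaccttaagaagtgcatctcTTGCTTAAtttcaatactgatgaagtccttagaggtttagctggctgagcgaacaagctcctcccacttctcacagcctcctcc

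A search of 9 short motifs on both strands found only this C/EBP letter pattern, TTGCNNAA, in the window, from base 84 to base 77 before the start. The same pattern was present in 9.56% of 32851 promoter windows of that length. The inner Fmo2 start also had it, with a glucocorticoid receptor pattern, AGAACA, which 16.1% of windows hold. The Fmo5 window held a TATAAA match at base 195, present in 12.4% of windows, and the Fmo4 window held none of the 9. The other patterns were CAGCTG (13.0% of windows), GAAANNGAA (7.13%), TTCNNNGAA (7.02%), GCGTG (28.2%), TGACNNNGC (10.2%) and TGANTCA (6.75%). A match is a stretch of letters and no evidence that a factor bound there, and GC content was 39.6% in the outer Fmo2 window against a median of 52.4% over all windows.

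Fmo2 had a log2 level of 5.44 in MEF, 8.03 on day 3, 8.67 on day 7, 10.42 on day 14, 8.34 in sorted iPV cells and 9.52 on the endogenous-labelled array. MEF alone was close to the floor, and the other 5 arrays were all far above it. Among all non-control probe sets of an array, this placed Fmo2 at percentile 57.7 in MEF, 89.7 on day 3, 93.9 on day 7 and 98.5 on day 14. It lay at percentile 91.3 in sorted iPV cells and 96.7 on the endogenous-labelled array. In bulk RNA, a change in the share of cells that express a gene and a change in RNA per cell cannot be told apart.

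**Figure D1:**
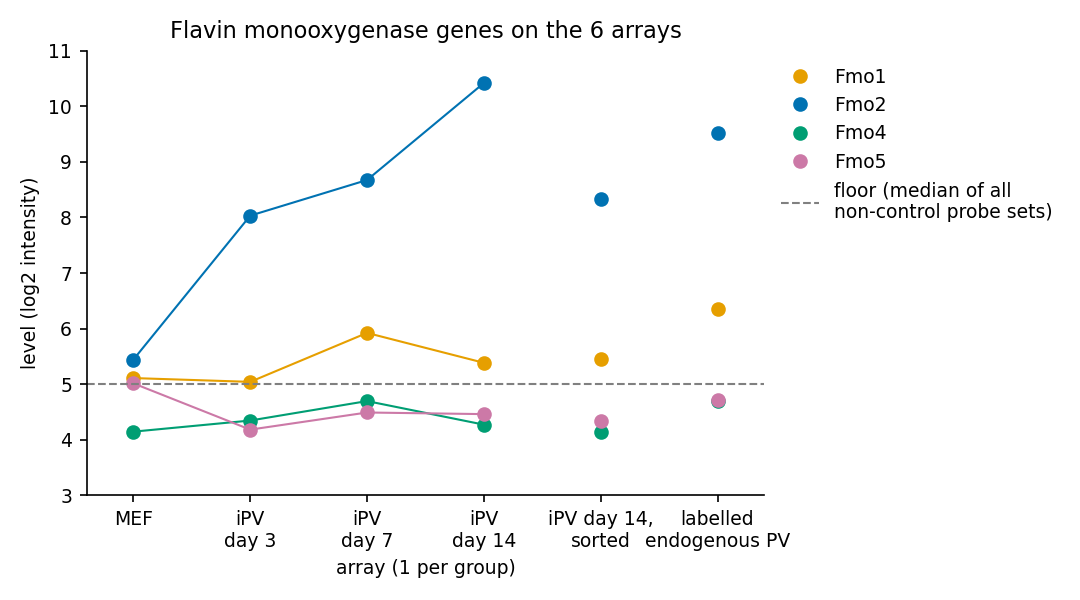
Log2 intensity of Fmo1, Fmo2, Fmo4 and Fmo5 on each of the 6 arrays, 1 point per array and gene, with a line along MEF and days 3, 7 and 14; the dashed line is the floor of 5.01. Fmo2 goes from 5.44 in MEF to 10.42 on day 14, while Fmo4 stays under the floor on all 6 arrays.

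Ordered by level, the Fmo2 arrays ran from MEF through day 3, sorted cells, day 7 and the endogenous-labelled array to day 14. As a measure of error without replicates, the technical spread was taken from genes with more than 1 probe set, as the standard deviation of the disagreement between their probe sets. Sorted cells exceeded day 3 by 0.31 and day 7 exceeded sorted cells by 0.33 on the log2 scale, each less than the technical spread of its pair (0.44 and 0.36). Neither neighbouring pair is therefore separated in order, while day 7 exceeded day 3 by 0.64. The endogenous-labelled array stood 0.85 above day 7, and day 14 stood 0.90 above it, 2.87 and 2.84 times the technical spread.

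Against MEF, Fmo2 was higher by 2.59 on the log2 scale on day 3, where its difference was exceeded by 30 of the 22180 genes. On day 7 it was higher by 3.23, exceeded by 13 genes. On day 14 the difference was 4.98, a 31.5-fold higher intensity, and 0 genes exceeded it. In sorted iPV cells it was 2.90, exceeded by 44 genes, and on the endogenous-labelled array 4.08, exceeded by 4. These ranks come from the contrast that chose the family and support nothing further.

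Fmo2 was the 1 member of 4 at least 2-fold higher than MEF on day 3, where 1.43% of all genes were, on day 7 (1.7% of genes), on day 14 (2.1%) and in sorted iPV cells (3.67%). On the endogenous-labelled array, Fmo1 joined it, so 2 of 4 were higher (2.13% of genes). No member was at least 2-fold lower than MEF on any array, where the share of all genes that low was 1.64% on day 3, 0.843% on day 7, 1.26% on day 14, 1.64% in sorted iPV cells and 0.969% on the endogenous-labelled array. The floor fixed the absence of lower members in advance. Fmo2 had the highest MEF level of the 4, at 5.44, which is less than 2-fold above the floor. No member could therefore fall 2-fold below MEF once values were raised to the floor, and nothing is read from that absence beside the shares. Nothing is read from the Fmo2 counts either, because the choice of members fixed them.

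Within the course of induction, Fmo2 was 0.64 higher on the log2 scale on day 7 than on day 3, 1.97 times the technical spread and under 2-fold, and 0.39 higher after centring the arrays on housekeeping genes. In that step 0 of the 4 members passed 2-fold in either direction, against 1.3% of all genes higher and 0.528% lower. Between day 7 and day 14 it was higher by a further 1.75, or 3.35-fold, and 9 genes exceeded this. It was the 1 member of 4 at least 2-fold higher in this step, against 0.604% of all genes, and 0 were lower, against 0.825%. The day 14 level also enters the rise over MEF that chose the family, so this rank and count are descriptions only. The technical spread of the pair was 0.27. The later step was therefore larger than the earlier on these arrays, although each interval is covered by 1 array at either end and the arrays of day 7 enter both. The later step also spans more days, so the sizes are not rates of change.

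Cells sorted for green fluorescence had less Fmo2 than the unsorted day 14 cells. The level was 8.34 in the sorted cells and 10.42 in the unsorted cells, a log2 difference of -2.08, which is 6.21 times the technical spread of 0.33. Only 10 of the 22180 genes had a lower difference, and Fmo2 was the 1 member at least 2-fold lower, against 0.609% of all genes, while 0 were higher, against 1.26%. The unsorted day 14 level also enters the rise over MEF that chose the family, so this rank and count are descriptions only. Fmo1, with 5.45 and 5.38, differed by 0.06, less than the technical spread.

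Marker lists also differed between these 2 arrays. The summed log2 level of 12 pan-neuronal markers was 10.31 in sorted and 9.74 in unsorted cells. Snap25, a protein of synaptic vesicle release, had 8.05 and 6.90, whereas Stmn2, a tubulin-binding protein of growing axons, had 7.14 and 7.71 and Rbfox3 had 5.78 and 6.06. Both arrays had 10 of these 12 above the floor, and Dcx and Elavl4 were under it on both. All of the 10 except Stmn2 and Rbfox3 were higher in sorted cells, among them Tubb3 (7.16 and 5.77) and Map2 (7.19 and 6.07). Macrophage markers summed to 8.63 in sorted and 9.48 in unsorted cells, with 5 of 8 and 8 of 8 above the floor. Fibroblast markers summed to 14.96 and 15.01, with 11 and 12 of 12 above the floor. Smooth muscle and pericyte markers summed to 12.72 and 13.19, with 8 of 8 above the floor on both, and there Rgs5 had 8.21 and 6.44 and Tagln 9.44 and 10.76. The part of cell composition in the Fmo2 difference was not tested.

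Sorted cells also had less Fmo2 than the endogenous-labelled array, 8.34 against 9.52, a log2 difference of -1.18, or 2.27-fold. Of all genes, 184 had a lower difference, and 1.14% were at least 2-fold lower, as 1 of 4 members was, while 1.36% were higher and 0 of 4 members. The endogenous-labelled level also enters the rise over MEF that chose the family, so these values too are descriptions only. Unsorted day 14 cells had 0.90 more than that array, under 2-fold. Day 7 lay 0.85 below that array, and which of day 7 and day 14 lay nearer to it is not settled by these arrays, since housekeeping centring turns the order.

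**Figure D2:**
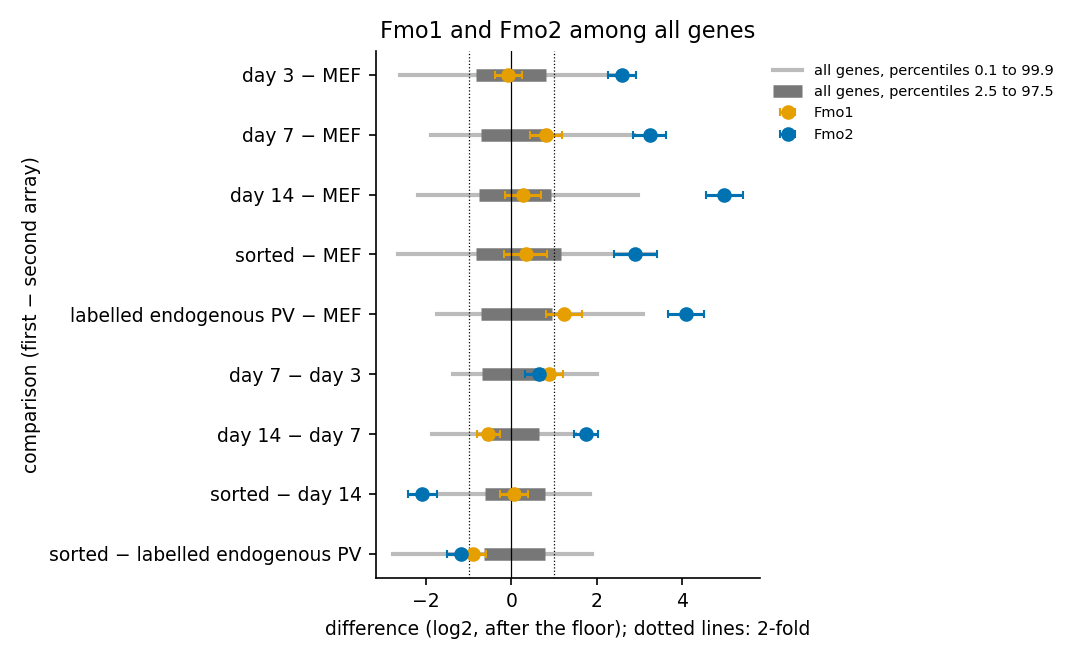
Log2 differences of Fmo1 and Fmo2 (points, with bars of 1 technical spread) in the 9 comparisons, over grey bands for all 22180 genes; dotted lines mark 2-fold. Fmo2 lies past the outer grey band for day 7 (3.23), day 14 (4.98) and the endogenous-labelled array (4.08) against MEF, for day 14 against day 7 (1.75) and, on the low side, for sorted against unsorted day 14 cells (-2.08).

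Fmo1 was above the floor on all 6 arrays, but by little on most. Its log2 level was 5.11 in MEF, 5.04 on day 3, 5.92 on day 7, 5.38 on day 14, 5.45 in sorted iPV cells and 6.35 on the endogenous-labelled array. The endogenous-labelled array was highest and day 7 next, and the other 4 lay between 5.04 and 5.45.

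Against MEF, Fmo1 was higher by 1.24 on the endogenous-labelled array, a 2.36-fold difference that is 2.95 times the technical spread of 0.42 and was exceeded by 272 genes. On day 7 it was higher by 0.81, 2.16 times the spread and under 2-fold, but by 0.32, less than the spread of 0.38, after centring the arrays on housekeeping genes. The differences on day 3 (-0.07), day 14 (0.27) and in sorted iPV cells (0.34) were within 1 technical spread of 0. The same centring turned the day 14 difference to -0.17. With a floor at percentile 75 of all probe sets (6.58), Fmo1 lay under the floor on every array and all of its differences were 0.

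Between induced arrays, Fmo1 was 0.88 higher on day 7 than on day 3 and 0.54 lower on day 14 than on day 7, in each case under 2-fold. Fmo2 was higher at the later time in both steps. Over the 6 arrays the Pearson correlation of Fmo1 with Fmo2 was 0.51, a description over 6 values that share their arrays. Macrophage markers summed to 11.17 on the endogenous-labelled array, 10.81 in MEF, 8.58 on day 3, 9.50 on day 7, 9.48 on day 14 and 8.63 in sorted iPV cells. MEF thus combined a high macrophage sum with a low Fmo1, and the part of macrophages in the Fmo1 levels was not tested.

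Fmo4 was under the floor on all 6 arrays. Its log2 level was 4.15 in MEF, 4.35 on day 3, 4.70 on day 7, 4.27 on day 14, 4.14 in sorted iPV cells and 4.70 on the endogenous-labelled array. No array stood out, and the control probe sets of the arrays had medians between 4.25 and 4.72. Its percentile among all probe sets ran from 30.2 in MEF to 43.9 on the endogenous-labelled array.

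Fmo5 was at the floor in MEF and under it elsewhere. Its log2 level was 5.01 in MEF, 4.18 on day 3, 4.49 on day 7, 4.46 on day 14, 4.33 in sorted iPV cells and 4.71 on the endogenous-labelled array. MEF was thus the highest array for Fmo5, where it was the lowest for Fmo2. Without a floor, Fmo5 differed from MEF by -0.83 on day 3, -0.52 on day 7, -0.55 on day 14, -0.68 in sorted iPV cells and -0.30 on the endogenous-labelled array. At levels where control probe sets also lie, a difference in expression was not detectable on these arrays.

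Other family genes on the array were dim as well. Fmo6 lay between 4.08 in MEF and 4.99 on day 14, and Fmo9 between 3.18 on day 3 and 3.80 in MEF, under the floor on all 6 arrays. Gm4846 and Gm4847, which RefSeq lists with the synonyms Fmo13 and Fmo12, were also under it on all 6.

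The genes around the family mostly differed little from MEF. In RefSeq order on chromosome 1, Fmo4, Fmo1, Fmo2 and Fmo6 follow each other, Fmo9 lies further along, and Fmo5 is on chromosome 3. Of the 18 nearest genes with a value, taken as 3 on either side of these groups, 8 were under the floor on all 6 arrays, 9 above it on all 6, and Chd1l above it on 5. The 18, and the 8 under the floor, include Gm4846 and Gm4847, which carry Fmo synonyms and are not outside the family. Prrx1, a homeobox gene of mesenchyme on the far side of Fmo6, lay between 10.28 in sorted iPV cells and 10.71 on day 7. Prrc2c, on the near side of Fmo4, lay between 9.85 on day 14 and 10.52 in sorted iPV cells. The 1 neighbour at least 2-fold higher than MEF on any array was Fam78b, a short way past Fmo9, with 5.59 in MEF, 7.09 on day 14 and 7.12 in sorted iPV cells, and 0 were 2-fold lower.

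**Figure D3:**
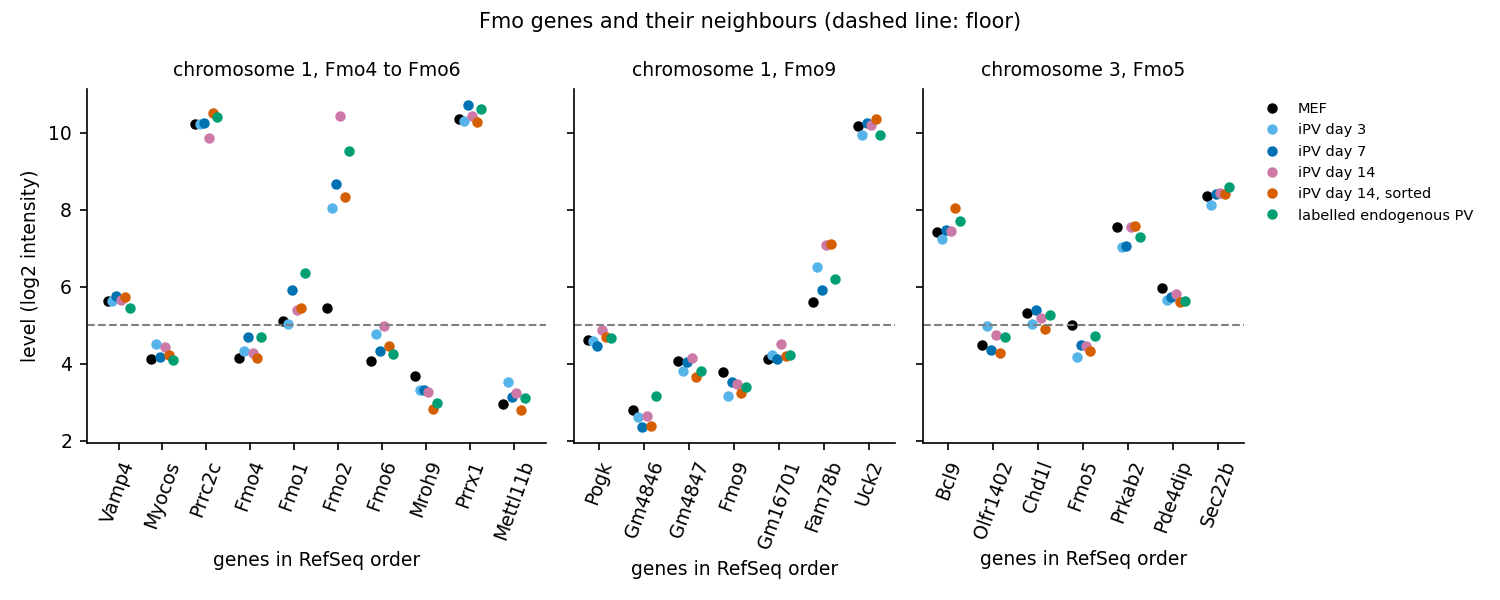
Log2 intensity of the Fmo genes and their nearest measured neighbours in RefSeq order, 6 points per gene in the colours of the arrays; the dashed line is the floor. Fmo2 spreads from 5.44 to 10.42 between Fmo6 and Fmo1, while Fmo1 reaches 6.35 and Fmo6 stays under the floor.

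Genes whose pattern most resembled that of Fmo2 were sought among 330 genes, predicted genes left out, with a range of at least 2 on the log2 scale over the arrays. The 5 of highest Pearson correlation over the 6 arrays were Bmp6 (0.997), Cmah (0.955), Dpp4 (0.949), Irf7 (0.942) and Usp18 (0.926). All 5 were lowest in MEF, as Fmo2 was. Genes picked for likeness share such features through their choice, so these are descriptions, here and for Fmo1 below. Without the MEF array, over 5 values, the correlation was 0.71 for Usp18 and between 0.88 (Irf7) and 0.99 (Bmp6) for the other 4. With a floor at percentile 75 that of Bmp6 was 0.83.

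Bmp6, which encodes a bone morphogenetic protein, was just under the floor in MEF and had a log2 level of 6.05 on day 3, 6.47 on day 7, 7.14 on day 14, 6.29 in sorted iPV cells and 6.84 on the endogenous-labelled array. Its order of arrays was the same as for Fmo2, an order in which sorted cells were not separated from day 3 or day 7. For Bmp6 those 2 pairs also lay within their technical spreads of 0.44 and 0.36. Day 14 likewise lay within the spread of 0.32 from the endogenous-labelled array, so the shared order is not settled. Dpp4, a cell surface peptidase, was under the floor in MEF at 4.48 and lay between 7.23 on day 3 and 7.89 on day 14 on the others. Cmah, a hydroxylase of sialic acid, ran from 5.82 in MEF to 8.81 on day 14, with 6.81 in sorted iPV cells. Irf7, a regulator of interferon genes, and Usp18, an interferon-induced protease, had 9.31 and 9.30 on day 14 against 6.58 and 6.69 in MEF.

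The pattern of Fmo1 was closest to those of Lbp (0.975), Serpina3n (0.975), Ccl11 (0.967), Il33 (0.966) and Snord104 (0.954), among 331 genes. Lbp, a binding protein of bacterial lipopolysaccharide, had 7.57 in MEF, 9.53 on day 7 and 11.07 on the endogenous-labelled array. Serpina3n, a protease inhibitor of the acute phase, had 8.45, 10.67 and 11.51 on the same arrays. The chemokine gene Ccl11 and the cytokine gene Il33 were also highest on the endogenous-labelled array, at 10.14 and 8.06, and next on day 7.

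**Figure D4:**
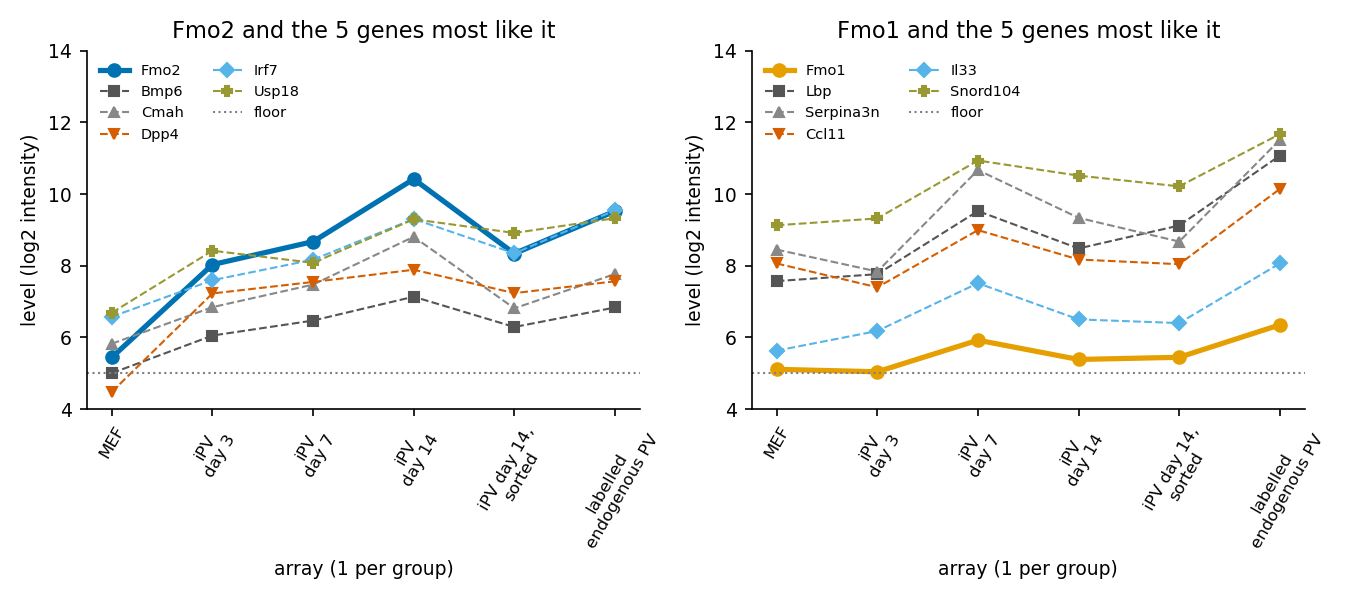
Log2 intensity on the 6 arrays of Fmo2 (left) and Fmo1 (right), each with the 5 genes of highest Pearson correlation; lines join arrays only to guide the eye, and the dotted line is the floor. The genes on the left peak on day 14 or on the endogenous-labelled array, and those on the right are highest on the endogenous-labelled array and second on day 7.

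Genes that work beside the family were taken from 11 lists with 146 measured genes, and their differences from MEF were counted at 2-fold. On day 14, 18 were higher and 3 lower, with a median difference of 0.17. The median of all genes without a floor was 0.03, and the floor, set at the median probe set, holds it at 0 in all 9 comparisons. Day 3 had 7 higher and 5 lower, day 7 had 12 and 5, sorted cells 16 and 4, and the endogenous-labelled array 17 and 1. Of all genes, 2.1% were higher and 1.26% lower on day 14, 1.43% and 1.64% on day 3, and 1.7% and 0.843% on day 7. The shares were 3.67% and 1.64% in sorted cells and 2.13% and 0.969% on the endogenous-labelled array, and they serve for each list below. They also count genes under the floor on both arrays, whose difference is held at 0. In some lists every measured gene was above the floor on at least 1 array, as in the hypoxia list (12 of 12). A list count above these shares is therefore not read as enrichment. The lists were chosen with earlier results known, so their counts are descriptions. Housekeeping centring changed the list counts, to 6 higher and 8 lower on day 14 and 7 and 9 in sorted iPV cells. It lowered the median of all genes by up to 0.49, on day 7 against MEF, on values without a floor. All list medians given here and below are before centring. Quantile normalization gave 15 and 3 on day 14 and 10 and 7 in sorted iPV cells.

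Of 25 cytochrome P450 genes with a value, 15 were above the floor on at least 1 array, and 5 were 2-fold higher than MEF on the endogenous-labelled array with 0 lower. On day 14 the count was 3 higher and 0 lower, and 2 higher and 3 lower after housekeeping centring. Cyp26b1, which clears retinoic acid, had 6.77 in MEF, 7.85 on day 3, 8.80 on day 7, 9.44 on day 14, 9.50 in sorted iPV cells and 8.61 on the endogenous-labelled array. Like Fmo2 it was lowest in MEF, but unlike Fmo2 it was not lower in sorted than in unsorted day 14 cells.

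Cyp2f2, a P450 best known from airway cells, had 7.28 in MEF, 7.28 on day 3, 9.75 on day 7, 7.97 on day 14, 6.41 in sorted iPV cells and 10.58 on the endogenous-labelled array. Its high arrays were those on which Fmo1 was high. Cyp7b1, an oxysterol hydroxylase, was higher than MEF by 1.62 to 1.84 on all 5 other arrays. Cyp2d22 was higher by 1.29 on day 14, 0.85 after housekeeping centring, and by 2.48 in sorted iPV cells.

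The partners of microsomal oxidases, among them cytochrome b5 and its reductases, had 0 of 7 genes at least 2-fold different from MEF on any array. Pgrmc1, a heme-binding membrane protein, differed by 0.35 to 0.64, and by 0.05 to 0.19 after housekeeping centring. Of 6 genes that supply NADPH, the cofactor of the family, Pgd of the pentose phosphate pathway was higher by 1.21 on day 7 and 1.10 in sorted iPV cells, and it just passed 2-fold on day 14. After housekeeping centring the 3 differences were 0.71, 0.84 and 0.56, and 0 of the 6 passed 2-fold.

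Of 17 other amine, aldehyde and flavin oxidases, 3 were 2-fold higher on day 14 and 0 lower, with 0 higher after housekeeping centring. Xdh, the flavoenzyme of purine breakdown, was higher than MEF by 1.32 on day 3, 1.92 on day 7, 1.32 on day 14, 2.29 in sorted iPV cells and 1.94 on the endogenous-labelled array. Aoc3, a copper amine oxidase of the cell surface, differed by -0.80 on day 3, 1.34 on day 7 and 1.05 on day 14. After housekeeping centring these were -1.07, 0.84 and 0.61. The day 3 level of Aoc3, 4.73, lay under the floor, so its day 3 differences are bounds set by the floor. Conjugating enzymes had 1 of 22 higher on day 14, Gstm2 by 1.21, and 0 lower. After housekeeping centring 0 were higher, with Gstm2 at 0.77.

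Of 16 genes of the NRF2 and redox list, 0 were higher on day 3 and 1 lower, Sod3 at -1.39. On day 14, 1 was higher and 0 lower, and the list medians were between 0.35 and 0.44 on the 5 arrays. Gpx3, a secreted glutathione peroxidase, was higher by 1.20 on day 14, 1.28 in sorted iPV cells and 1.36 on the endogenous-labelled array. Housekeeping centring left 0 of the list higher on day 14, with Gpx3 at 0.76. On day 14 it also took the median of all genes without a floor from 0.03 to -0.41. A rise of the list median is therefore not settled. In the aryl hydrocarbon receptor list, 1 of 8 genes was 2-fold different on any array, Cyp1b1, by 1.17 on the endogenous-labelled array. After housekeeping centring that difference was 0.93, and the genes past 2-fold were lower ones, Cyp1b1 on day 14 (-1.09) and Ahr, the receptor, on day 3 (-1.06). Nqo1, a quinone reductase of the same list, differed most on day 14, by 0.56, or by 0.12 after housekeeping centring.

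Fmo1 makes taurine, so genes of taurine and cysteine metabolism were counted too. Of 11, 2 were higher on day 3, Cth by 1.81 and Got1 by 1.29, and 0 lower, or 1 lower after housekeeping centring, Cdo1 at -1.20. Cdo1, the dioxygenase that starts the route from cysteine to hypotaurine, had 8.34 in MEF, 7.38 on day 3, 8.42 on day 7, 7.49 on day 14, 7.01 in sorted iPV cells and 8.85 on the endogenous-labelled array. Slc6a6, the taurine transporter, differed from MEF by -0.71 to -1.27 on the 5 arrays and was highest in MEF, at 8.96.

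**Figure D5:**
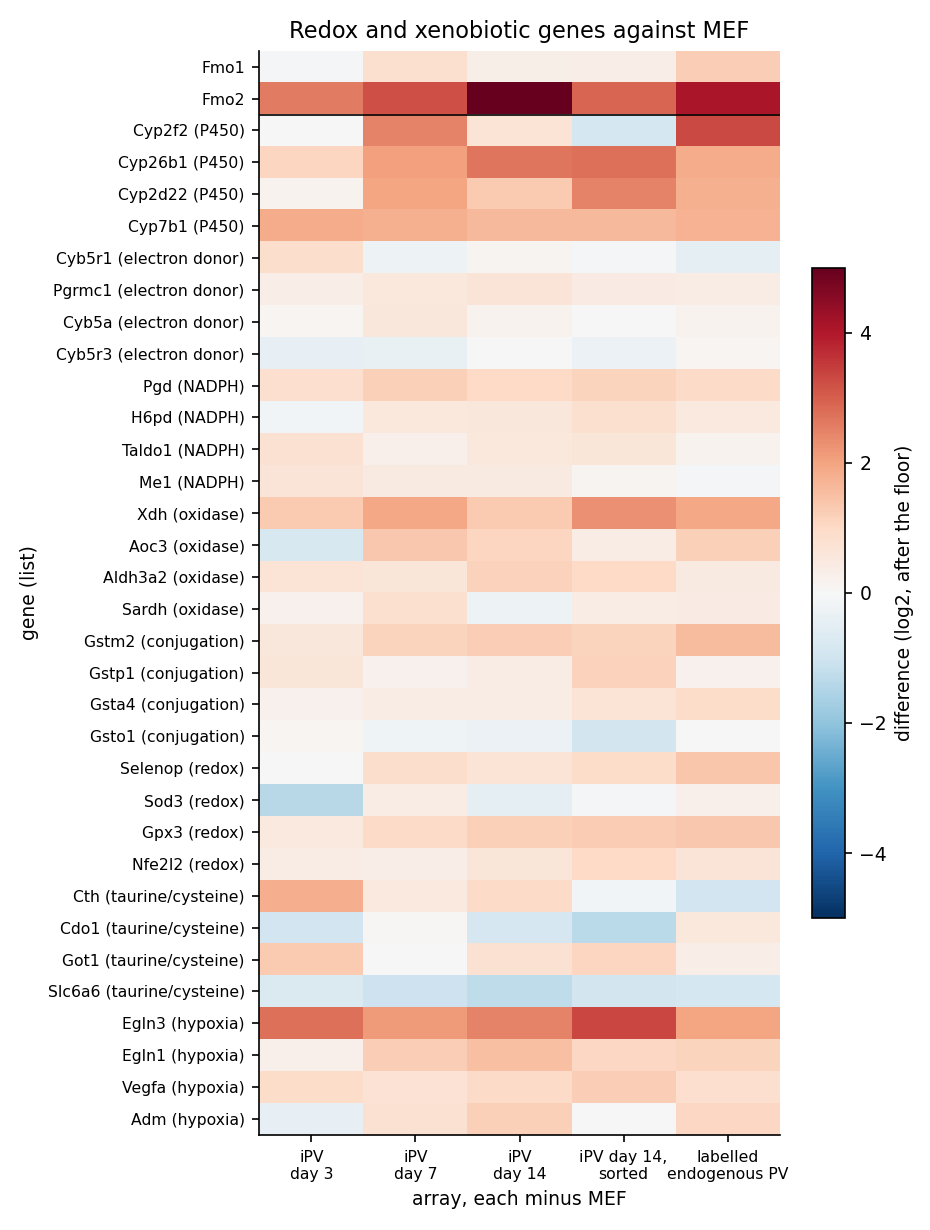
Log2 differences from MEF of Fmo1, Fmo2 and the most different genes of 8 of the lists, for the 5 other arrays; red is higher than MEF and blue lower. Fmo2 reaches 4.98 on day 14, and among the other genes drawn Egln3 in sorted iPV cells, at 3.36, and Cyp2f2 on the endogenous-labelled array, at 3.30, differ most.

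Hypoxia genes were included because flavin monooxygenases have been tied to oxygen sensing in worms. Of 12, 4 were 2-fold higher on day 14 and 0 lower, with a median of 0.86, and 2 were higher after housekeeping centring. Egln3, a prolyl hydroxylase induced by low oxygen, had 6.65 in MEF, 9.39 on day 3, 8.80 on day 7, 9.15 on day 14, 10.01 in sorted iPV cells and 8.62 on the endogenous-labelled array. Its level in sorted iPV cells was above that in unsorted day 14 cells, where Fmo2 was below. Vegfa, the growth factor of vessels, differed from MEF by 0.74 to 1.23, and by 0.25 to 0.97 after housekeeping centring.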

How the data were processed

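Affymetrix arrays measured biotin-labelled RNA of 6 samples, 1 per group, per the labels' protocols. In the table the authors deposited, values are on a log2 scale, as judged from their range. Per the submitters' processing notes, Affymetrix Expression Console was used; its version, algorithm and genome build were not given in the sources used here. No detection calls were used, and the number of arrays limits the precision.

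Of 41345 probe sets, 5333 numbered below the first annotated were left out as controls. The platform annotation gave 1 symbol to 23521 probe sets and several to 1814. A RefSeq table of assembly GRCm38.p6 held 23328 Entrez identifiers and changed 0 symbols. For each of 22180 genes, the probe set of highest mean was kept. Values under 5.01 were raised to it, and differences were counted from 1 log2 unit. The technical spread was the standard deviation, over 327 to 403 genes, of the disagreement between the log2 differences of the 2 brightest probe sets of a gene, divided by the square root of 2. It leaves out variation between cultures. Calculations used Python 3.11.15, pandas 2.3.3 and numpy 2.4.6, and the difference and count steps were tested on simulated data.

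The members, lists and motifs were chosen with earlier results of these data known. The text names the members, the 5 genes most like each member with a range of 1 or more, 3 neighbours per side, and up to 4 genes of each list with the largest difference from MEF. Nqo1 belongs to that rule through the aryl hydrocarbon receptor list, and marker genes were taken from the fixed lists. The alternatives were 6 set beforehand and 2 added after the data were seen.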

Additional observations from a re-analysis of the deposited data

How the results depend on the processing

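With a floor at percentile 75, the Fmo2 difference from MEF was 1.45 on day 3, 2.09 on day 7, 3.83 on day 14, 1.76 in sorted iPV cells and 2.94 on the endogenous-labelled array. Housekeeping centring gave 2.74 on day 7 and 4.53 on day 14. The Fmo2 differences from MEF kept their sign and stayed past 2-fold under the higher floor, quantile normalization and that centring. So did its lower level in sorted than in unsorted day 14 cells, from -2.10 to -1.89, which the higher floor could not change because both levels lie above it. Removing the floor and averaging probe sets could not change any Fmo2 difference, since Fmo2 has 1 probe set and lies above the main floor on all 6 arrays. The higher floor and a 4-fold threshold each left 1 member higher on the endogenous-labelled array, Fmo2.

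Counts of list genes moved more. Housekeeping centring gave 13 lower on day 3, 7 higher and 9 lower on day 7, 6 and 8 on day 14, 7 and 9 in sorted iPV cells, and 10 and 5 on the endogenous-labelled array. Quantile normalization gave 10 higher and 7 lower in sorted iPV cells and 2 lower on the endogenous-labelled array. No floor gave 9 lower on day 3 and 2 lower on the endogenous-labelled array, and the higher floor gave 3 lower on day 3. The 4-fold threshold gave 2 higher and 2 lower on day 3, 4 and 0 on day 7, 3 and 1 on day 14, 5 and 2 in sorted iPV cells, and 2 and 0 on the endogenous-labelled array. The cause of the shifts under centring and quantile normalization was not tested. Likeness to Fmo1 could not be computed with the higher floor, where Fmo1 is constant. No paired analysis was possible because each group holds 1 array. Signal near control probe sets limits what can be read for Fmo4 and Fmo5.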

Other observations

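Further genes of the fixed lists lay outside the enzymes described above. Of 13 genes of the glucocorticoid response, 4 were at least 2-fold higher than MEF on day 14 and 2 lower, against 2 and 3 after housekeeping centring. Lcn2, a lipocalin that binds bacterial siderophores, had 8.98 in MEF, 10.99 on day 3, 11.77 on day 7, 11.71 on day 14, 11.31 in sorted iPV cells and 12.18 on the endogenous-labelled array. In the other direction, Pdk4, a kinase that restrains pyruvate oxidation, had 8.28 in MEF and between 5.80 and 6.59 on the other arrays. Angptl4, an inhibitor of lipoprotein lipase, had 8.49 in MEF, 5.62 on day 3, 7.01 on day 7, 6.16 on day 14, 5.53 in sorted iPV cells and 7.82 on the endogenous-labelled array. Members of this list thus lay on both sides of MEF on the same arrays. The list's name describes how its genes are known to be regulated, and the hormone was not measured.

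Among 13 nuclear receptors and forkhead factors of xenobiotic and lipid metabolism, 1 was 2-fold higher than MEF on day 14, the circadian repressor gene Nr1d1 by 1.04, and 0 were lower. After housekeeping centring Nr1d1 differed by 0.59.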
